A study of Arabidopsis thaliana with 24 samples.

Results

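APL3 and SWEET11 are a pair of Arabidopsis thaliana genes at opposite ends of carbon use in a leaf. APL3 (AT4G39210) encodes a large, regulatory subunit of ADP-glucose pyrophosphorylase. SWEET11 (AT3G48740) encodes a sucrose exporter. They were chosen by gene, with earlier results of these data known, 1 probe set each, and make up 2 of the 22746 probe sets tested. Both were followed across all 12 groups of the study, 3 harvests by 4 waterings with 2 arrays a group, 24 arrays in all.

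The plants were wild-type Columbia (Col-0), grown 3 to a pot, and each pot drew up 25 ml of its solution every week, starting in week 1 and ending in week 5. The waterings were oxidized glutathione (GSSG, 1 mM), reduced glutathione (GSH, 2 mM), NH4NO3 (3 mM) and, as the control, water. GSSG is a pair of GSH molecules joined by a disulfide bond, so both doses are equal in glutathione units, and each fed solution carries 6 mM nitrogen. At 3 weeks (3W) the whole aerial part with the shoot apex was taken, and at 4 weeks (4W) and 5 weeks (5W) only leaf blades, those of leaves 2 and 3 counted from the top among the fully expanded ones. Tissue and age therefore change together between 3W and 4W and cannot be told apart. Plants harvested earlier had also been fed fewer times, at most 3 before the 3W harvest. Age and the number of feeds thus cannot be told apart between any harvests, 4W and 5W included. RNA came from whole organs, so fewer cells of a type and less RNA per cell cannot be told apart either.

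ADP-glucose pyrophosphorylase makes ADP-glucose, the glucosyl donor for starch, in the chloroplast stroma and is the main point of control of starch synthesis. Its small subunits carry catalysis and its large subunits set how it responds to metabolites; APL3 is best known as a large subunit whose transcript accumulates when Arabidopsis leaves are given sugar. Sucrose leaves the leaf along the phloem: SWEET11, together with its close relative SWEET12, releases sucrose from phloem parenchyma cells into the cell wall, from where the proton symporter SUC2 loads it into companion cells.

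Values are array signals on a linear scale, 1 per probe set and array, and every array has the same trimmed mean signal of 500 within rounding (500.044 to 500.055). Signals of different probe sets are not comparable as amounts of RNA. Changes are given on the log2(signal + 16) scale with limma's standard error (SE) or 95% interval, folds are ratios of group mean signals, and a change passed the test when its adjusted p, taken over all probe sets, was under 0.05. The ratio of 3' to 5' actin signal, a sign of RNA integrity, was 4.29 to 4.81 on the 4 replicate 2 arrays at 4W and 2.65 to 3.80 on the other arrays. Among the tissue markers listed, RCA, the Rubisco activase of mesophyll cells, had group means of 12310 to 16003 at 3W and 29250 to 43056 in the blades. CLV3, a stem cell gene of the shoot apex, stayed low on every array (group means 2.45 to 23.1). No listed marker of phloem, flower or root had a probe set with a single gene name here, so none was followed.

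APL3 signal was lowest in the 3W aerial parts, intermediate in 4W blades and highest in 5W blades. At 3W the 2 arrays read 284 and 274 with GSSG, 154 and 254 with GSH, 177 and 214 with NH4NO3, and 186 and 186 with water. These values lay in the middle of each array's signals, with 46.3% to 58.5% of probe sets below them. At 4W they read 517 and 358 with GSSG, 589 and 477 with GSH, 447 and 435 with NH4NO3, and 626 and 437 with water. The water arrays overlapped those of every fed solution there, both GSH arrays lay above both NH4NO3 arrays, and replicate 1 was the higher array in each of the 4 waterings. At 5W they read 1269 and 1007 with GSSG, 475 and 601 with GSH, 537 and 782 with NH4NO3, and 1337 and 1401 with water. The GSH and NH4NO3 arrays overlapped each other and lay under every GSSG and water array, and the GSSG arrays lay under the water arrays.

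Ordered by group mean, APL3 was highest in 5W water (1369 ± 45.2, SD, n = 2), followed by 5W GSSG (1138 ± 186) and 5W NH4NO3 (660 ± 174). These neighbours did not overlap, array against array. The next 5 groups, from 5W GSH (538 ± 89.2) to 4W GSSG (437 ± 113), each overlapped the group before them. Below a gap of 1.57-fold came 3W GSSG (279 ± 6.50), which did not overlap the next group, and then the 3 remaining 3W groups, which overlapped one another and ended with 3W water (186 ± 0.51). With 2 arrays a side, an exact two-sided permutation test cannot go below 0.333, so the order is a description.

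SWEET11 had 2 levels, from 59.3 to 155 in aerial parts and from 9028 to 17038 in blades. At 3W the arrays read 75.4 and 131 with GSSG, 112 and 60.5 with GSH, 155 and 59.3 with NH4NO3, and 103 and 107 with water. Between 31.9% and 46.6% of probe sets on each array read lower, so SWEET11 was dim there. Whether its transcript was detected at all at 3W was not tested. At 4W the arrays read 14699.6 and 15601 with GSSG, 17038 and 15044 with GSH, 12872 and 9028 with NH4NO3, and 13977 and 14751 with water. At least 98.6% of probe sets read lower on each blade array. At 5W they read 10962 and 12156 with GSSG, 11206 and 12749 with GSH, 12628 and 11499 with NH4NO3, and 13765 and 12796 with water. The fed solutions overlapped one another at 5W, and the brightest fed array stood just under the dimmer water array.

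Ordered by group mean, SWEET11 ran from 4W GSH (16041 ± 1410, SD, n = 2) down to 4W NH4NO3 (10949.9 ± 2718) with only small steps among the 8 blade groups. The gaps without overlap were between 4W water (14364 ± 547) and 5W water (13280.5 ± 686), and between 5W water and 5W NH4NO3 (12063 ± 798). A 102-fold step then separated 4W NH4NO3 from the highest 3W group, 3W NH4NO3 (107 ± 67.7), and the 4 groups at 3W overlapped.

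**Figure D1:**
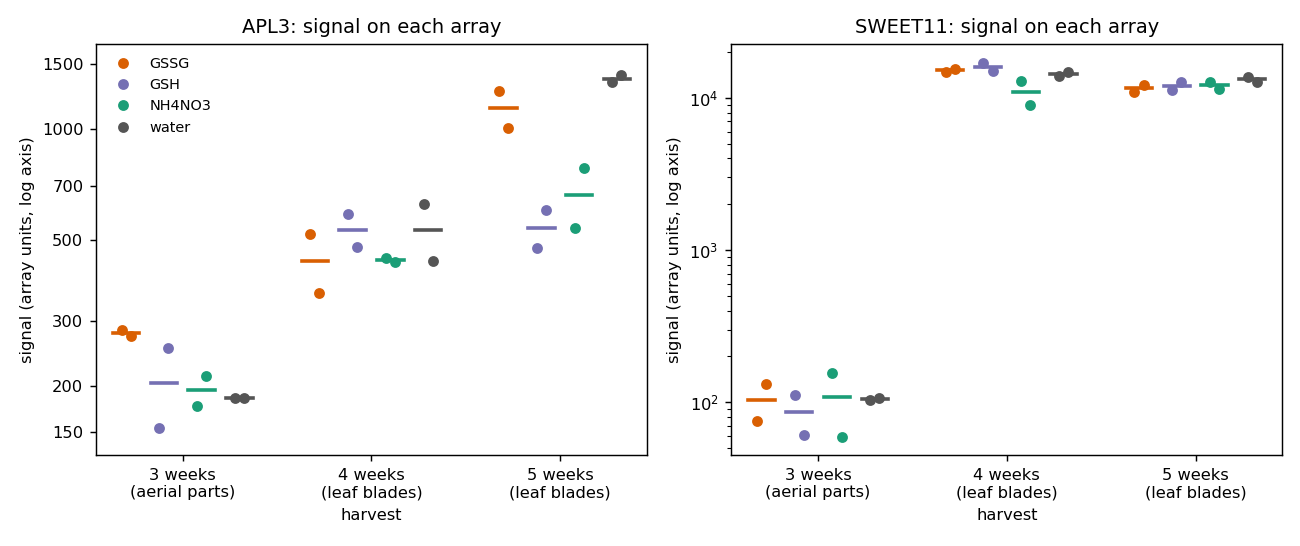
Signal of APL3 (left) and SWEET11 (right) on each of the 24 arrays, on log axes that differ between panels; points are arrays, bars are means of 2 and colours are waterings. APL3 splits at 5 weeks, with GSH (475 and 601) and NH4NO3 (537 and 782) under GSSG and water, while SWEET11 stays at 9028 or more in all blade samples and between 59.3 and 155 in aerial parts.

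APL3 was lower in 5W blades with GSH and with NH4NO3 than with water. GSH gave an APL3 signal of 538 ± 89.2 against 1369 ± 45.2 in water (SD, n = 2 each). This was a log2 change of -1.33 ± 0.24 (SE), or 2.54-fold lower (adjusted p = 0.00643). In this comparison 1.49% of probe sets passed the test. NH4NO3 gave 660 ± 174 against 1369 ± 45.2 in water, a log2 change of -1.06 ± 0.24, or 2.08-fold lower (adjusted p = 0.0238), where 2.22% of probe sets passed. GSSG gave 1138 ± 186 against 1369 ± 45.2 in water, a log2 change of -0.27 with an interval from -0.78 to 0.24 that did not pass (adjusted p = 0.896; 0.22% of probe sets passed). The mean of the 3 fed solutions was lower than water by a log2 change of -0.89 ± 0.20 (adjusted p = 0.0217; 2.02% passed).

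These calls rested on 2 arrays a group. A fit without 1 array leaves 1 array in that group and is a weaker test for every probe set. A lost call there does not show that the change came from that array. The log2 change with 1 array left out ran from -1.49 to -1.17 with GSH and from -1.33 to -0.79 with NH4NO3. The GSH call was lost without GSH replicate 1 at 5W (log2 change -1.17, adjusted p = 0.169) and without water replicate 2 at 5W (-1.30, adjusted p = 0.0863). The NH4NO3 call was lost without water replicate 1 (-1.09, adjusted p = 0.0851), water replicate 2 (-1.03, adjusted p = 0.197) or NH4NO3 replicate 1 (-0.79, adjusted p = 0.311), all at 5W. APL3 stayed lower than water in each of these fits. For the mean of the fed solutions, the adjusted p was 0.111 and 0.305 without water replicate 1 and 2, 0.0574 without GSH replicate 1, 0.0533 without NH4NO3 replicate 1 and 0.0582 without GSSG replicate 2.

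At the earlier harvests APL3 did not pass against water with any solution. At 4W its log2 change was -0.27 with GSSG (adjusted p = 0.77), 0.02 with GSH (adjusted p = 0.994) and -0.24 with NH4NO3 (adjusted p = 0.932). Few probe sets passed at 4W at all, 0.0484% with GSSG, 0.0044% with GSH, 0.0132% with NH4NO3 and 0.00879% for the mean of the fed solutions. At 3W the GSSG arrays (284 and 274) were above both water arrays (186 and 186), a log2 change of 0.55 with an interval from 0.04 to 1.06 (adjusted p = 1). With limma 0% of probe sets passed at 3W against water with GSSG, GSH, NH4NO3 or their mean, while 599, 506, 611 and 506 had an unadjusted p under 0.05.

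SWEET11 did not pass against water with any solution at any harvest. At 5W it read 11559 ± 845 with GSSG, 11978 ± 1091 with GSH and 12063 ± 798 with NH4NO3, against 13280.5 ± 686 in water (SD, n = 2 each). The log2 changes were -0.20 (interval -0.81 to 0.41, adjusted p = 0.961), -0.15 (-0.76 to 0.46, adjusted p = 0.905) and -0.14 (-0.75 to 0.47, adjusted p = 0.906). The interval with GSH leaves room for a level below or above water, but not for a difference as large as that of APL3 with GSH. At 4W the largest difference was with NH4NO3, 10949.9 ± 2718 against 14364 ± 547 in water, a log2 change of -0.41 (-1.02 to 0.20, adjusted p = 0.876). At 3W the 3 log2 changes were -0.06 with GSSG, -0.29 with GSH and -0.09 with NH4NO3, each with an adjusted p of 1.

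All 6 fed arrays at 5W were below both water arrays for APL3 (475 to 1269 against 1337 and 1401) and for SWEET11 (10962 to 12749 against 12796 and 13765). This order was common, since 9.01% of all probe sets (2050) showed it. An exact two-sided permutation test of the difference in mean log2 signal gave p = 0.0714 for each gene, where the smallest p that 28 splits allow is 0.0357.

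**Figure D2:**
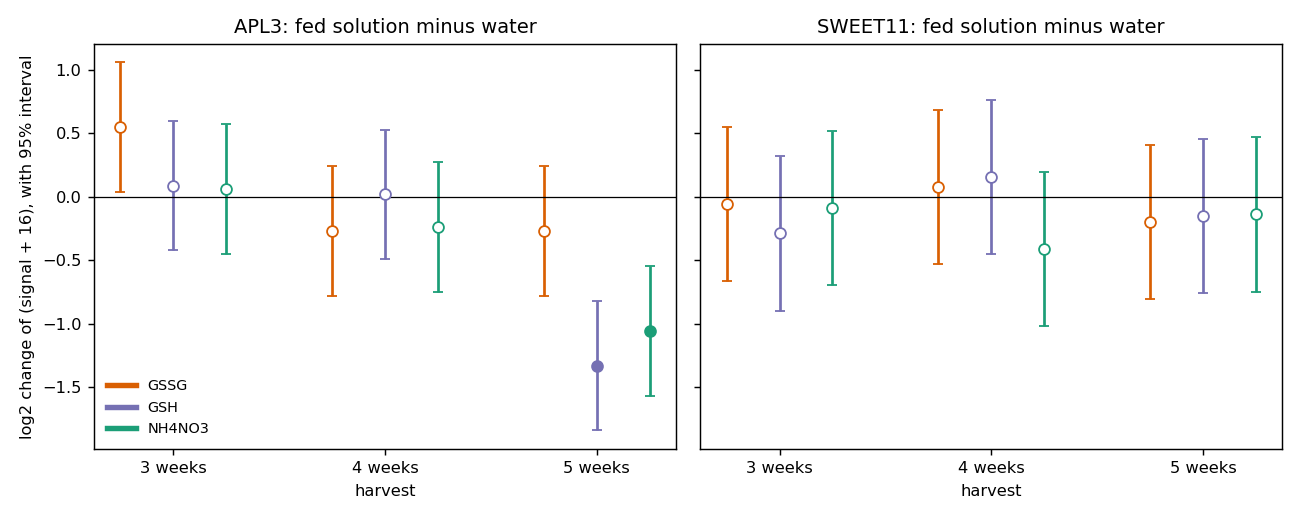
Log2 change of signal + 16 with each fed solution relative to water at 3 harvests, for APL3 (left) and SWEET11 (right); bars are 95% intervals, and filled points passed the test at an adjusted p under 0.05. The filled points are APL3 at 5 weeks with GSH (-1.33) and NH4NO3 (-1.06), and every SWEET11 interval includes 0.

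The GSSG and GSH solutions were equal in glutathione units and differed in the redox state supplied. Which form reached the plants, and how much, is not known from these data. Both were set against each other and against NH4NO3 in the 5W blades. APL3 was 2.11-fold higher with GSSG (1138 ± 186) than with GSH (538 ± 89.2), a log2 difference of 1.06 with an interval from 0.55 to 1.57. It was the 8th smallest p of 22746, but limma passed 0% of probe sets in this comparison (893 had an unadjusted p under 0.05), and the adjusted p was 0.85. GSSG against NH4NO3 differed by 0.79 for APL3 (0.28 to 1.30, adjusted p = 0.449; 0.0879% of probe sets passed). GSH against NH4NO3 differed by -0.27 (-0.78 to 0.24, adjusted p = 0.929; 0.044% passed). So GSH passed against water and GSSG did not, while the difference between GSSG and GSH did not pass.

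For SWEET11 the 3 pairs of solutions at 5W differed by little. GSSG minus GSH was -0.05 (-0.66 to 0.56, adjusted p = 1), GSSG minus NH4NO3 was -0.06 (adjusted p = 0.999) and GSH minus NH4NO3 was -0.01 (adjusted p = 1). At 3W and 4W, 0 of 12 pairwise tests of both genes passed (adjusted p 0.612 to 1). In those comparisons the share of all probe sets that passed was 0% for GSSG against NH4NO3 and for GSSG against GSH at 3W (729 and 660 with an unadjusted p under 0.05) and 0.0044% for GSH against NH4NO3 at 3W. At 4W it was 0.211% for GSSG against NH4NO3, 0.185% for GSH against NH4NO3 and 0.00879% for GSSG against GSH.

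APL3 rose between 4W and 5W blades in plants given water or GSSG. In water it read 1369 ± 45.2 at 5W against 532 ± 134 at 4W (SD, n = 2 each), a log2 change of 1.36 ± 0.24 (SE), or 2.58-fold (adjusted p = 0.00112), where 10.6% of probe sets passed. With GSSG it read 1138 ± 186 at 5W against 437 ± 113 at 4W, a log2 change of 1.36 ± 0.24, or 2.60-fold (adjusted p = 0.00119), where 12.5% passed. Both calls held in each of the 16 alternatives run, with adjusted p up to 0.027 in water and up to 0.0279 with GSSG.

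With GSH or NH4NO3 the same step did not pass. GSH blades read 538 ± 89.2 at 5W against 533 ± 78.9 at 4W, a log2 change of 0.01 with an interval from -0.50 to 0.52 (adjusted p = 0.99; 4.34% of probe sets passed). NH4NO3 blades read 660 ± 174 at 5W against 441 ± 8.60 at 4W, a log2 change of 0.54 (0.03 to 1.05, adjusted p = 0.268; 2.43% passed). The lower APL3 with GSH at 5W was thus a 5W level close to that of 4W blades, beside a water level that had risen.

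The change of each fed effect between 4W and 5W was tested directly. For GSH the effect on APL3 at 5W minus that at 4W was -1.35 (-2.07 to -0.63, adjusted p = 0.164), where 0.154% of probe sets passed. For NH4NO3 it was -0.82 (-1.54 to -0.10, adjusted p = 0.575; 0.171% passed). For GSSG it was 0.000457 (adjusted p = 1; 0.00879% passed). None of the 3 passed. With the replicate number as a block within each harvest, the GSH value of -1.35 passed (adjusted p = 0.0288), so this call depended on the model.

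SWEET11 showed no change past the test between the blade harvests. Its log2 change from 4W to 5W was -0.39 with GSSG (adjusted p = 0.441), -0.42 with GSH (adjusted p = 0.473), 0.16 with NH4NO3 (adjusted p = 0.855) and -0.11 in water (adjusted p = 0.87). The fed effects at 5W minus those at 4W were -0.28 with GSSG (adjusted p = 0.944), -0.31 with GSH (adjusted p = 0.903) and 0.27 with NH4NO3 (adjusted p = 0.941).

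The step from 3W aerial parts to 4W blades, compared after the levels had been seen, was the largest of SWEET11. Its log2 change was 7.03 with GSSG (147-fold, adjusted p = 6.92e-12), 7.34 with GSH (186-fold, adjusted p = 4.36e-12), 6.57 with NH4NO3 (102-fold, adjusted p = 8.15e-12) and 6.89 in water (137-fold, adjusted p = 4.98e-12). Many probe sets differed here, 35.7% with GSSG, 36% with GSH, 37% with NH4NO3 and 37.7% in water. By size of change upwards, SWEET11 was 3rd with GSSG, 4th with GSH, 8th with NH4NO3 and 6th in water among all probe sets. The folds divide by dim 3W means, so neither their size nor their order among waterings is firm. The 3W signals are low, so the log2 change moved with the constant added before the logarithm (6.04 to 7.59 over the 4 waterings with 1 or 64 in place of 16) and with single arrays (5.98 to 7.71 with 1 array left out).

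APL3 rose over the same step with GSH (log2 change 1.35, 2.61-fold, adjusted p = 0.000175), NH4NO3 (1.12, 2.26-fold, adjusted p = 0.00103) and water (1.42, 2.86-fold, adjusted p = 9.79e-05). With GSSG its log2 change was 0.60, or 1.57-fold, and did not pass (adjusted p = 0.0645). Without GSSG replicate 2 at 4W, the array with the lowest APL3 signal in blades (358), the change was 0.85 and passed (adjusted p = 0.0322). The 4 replicate 2 arrays at 4W are those with the higher actin ratio. Leaving out all 4 keeps the same GSSG arrays as that fit, so it gives the same 0.85 and is no second check.

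**Figure D3:**
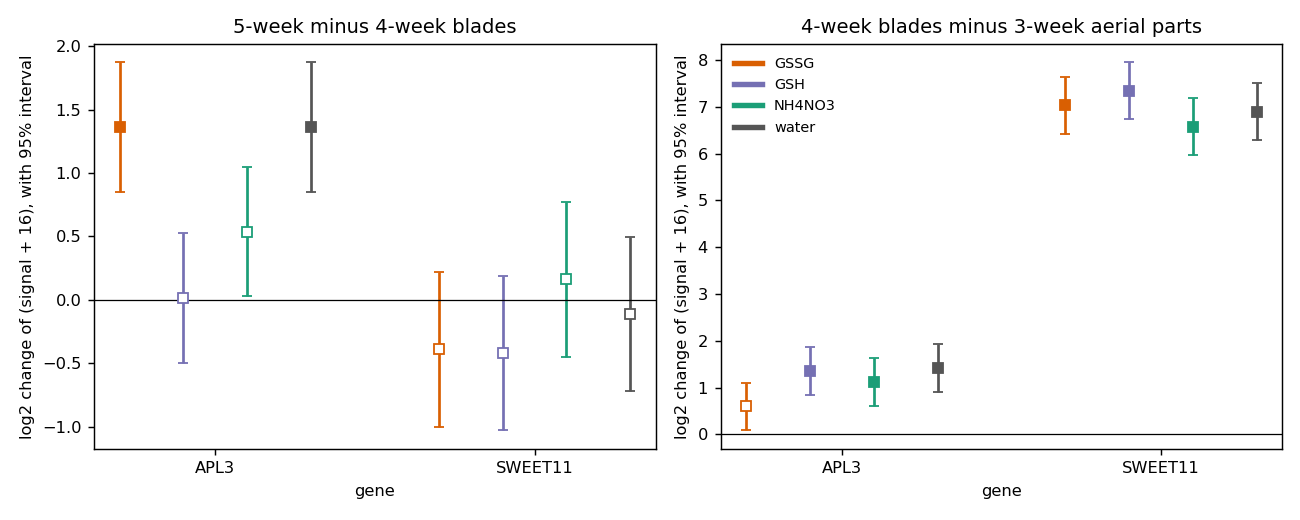
Log2 change of signal + 16 between harvests within each watering, 5-week minus 4-week blades on the left and 4-week blades minus 3-week aerial parts on the right; bars are 95% intervals and filled squares passed the test at an adjusted p under 0.05. APL3 rises between blade harvests with GSSG and water (1.36 each) and SWEET11 rises by 6.57 to 7.34 between aerial parts and blades.

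The families of both genes were followed where a probe set carried a single gene name, which left 2 of 6 subunits of ADP-glucose pyrophosphorylase and 16 of 17 SWEET genes. SWEET12 was among those not analysed here, and whether the SWEET11 probes also read SWEET12 transcripts was not tested. APL4, the other large subunit measured, stayed between 49 and 222 on all arrays and did not pass against water at any harvest. From 3W to 4W it moved opposite to APL3, with log2 changes of -0.97 with GSSG (adjusted p = 0.0282), -1.41 with GSH (adjusted p = 0.00217) and -0.94 in water (adjusted p = 0.0321).

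Among the SWEET genes, 9 never reached a group mean of 100 (SWEET3, SWEET5 to SWEET10, SWEET14 and SWEET15). SWEET4, a hexose transporter, and SWEET13, a sucrose transporter of the same clade as SWEET11, passed upwards together with SWEET11 between 3W and 4W in all 4 waterings. In water SWEET13 read 1339 at 4W against 23.7 at 3W, a log2 change of 5.22, and SWEET4 changed by 2.26. SWEET17, a vacuolar fructose transporter, passed downwards over that step with GSSG (-1.87) and GSH (-2.20). SWEET2, a vacuolar transporter, was dim in blades and passed downwards between 4W and 5W in water, at 19.4 against 93.2 (adjusted p = 0.0186), and SWEET16, also vacuolar, passed in neither step between harvests nor against water. At 5W against water the median log2 change of the 16 SWEET genes was 0.01 with GSSG, 0.19 with GSH and -0.09 with NH4NO3, beside -0.03, -0.02 and -0.05 over all probe sets. These medians include the 9 dim genes. SWEET1 read 592 with GSH against 853 in water at 5W, SWEET4 383 against 420 and SWEET11 11978 against 13280.5. SWEET13 (2079 against 2422) and SWEET17 (337 against 953) were lower too. SWEET2 (56.2 against 19.4) and SWEET16 (74.9 against 61.3), both dim there, were higher. None of the 16 passed with GSH.

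SWEET1, a glucose transporter of the plasma membrane, was the 1 SWEET gene of 16 that passed at 5W, with NH4NO3. It read 341 ± 102 with NH4NO3 against 853 ± 180 in water (SD, n = 2 each), a log2 change of -1.30 ± 0.30 (SE, adjusted p = 0.0259). Like APL3, SWEET1 also passed upwards from 4W to 5W in water (log2 change 1.09, adjusted p = 0.0256). For both genes this rise and the comparison with water at 5W use the same 2 water arrays at 5W. The 2 calls are therefore not independent. SWEET17 read 337 ± 49.6 with GSH against 953 ± 232 in water at 5W, a log2 change of -1.44 ± 0.37 just outside the threshold (adjusted p = 0.0579), and with NH4NO3 its log2 change was 0.55 (adjusted p = 0.587).

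**Figure D4:**
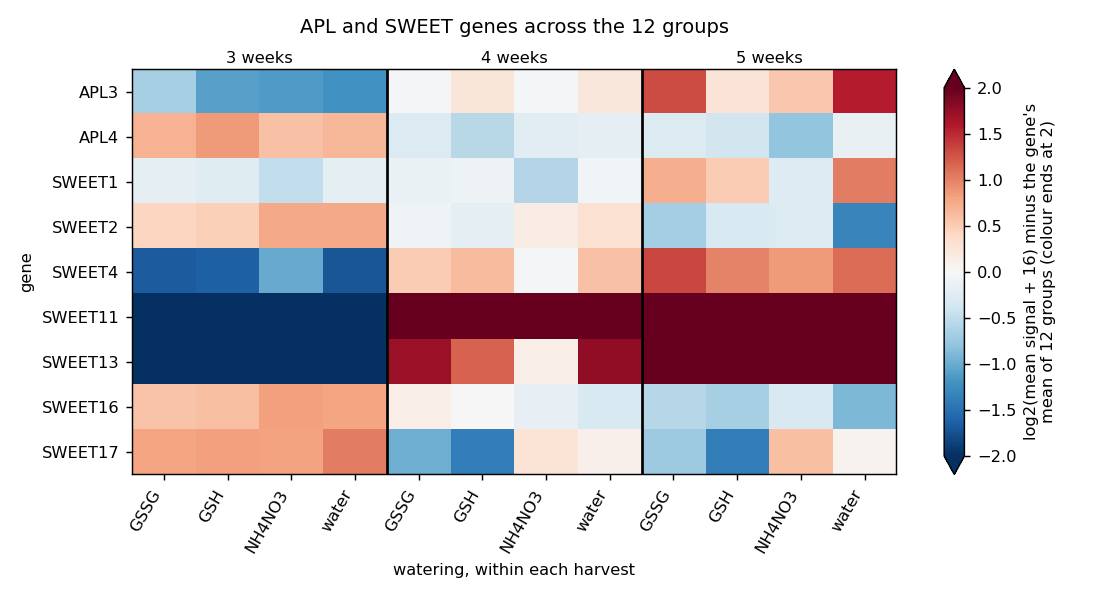
APL and SWEET genes with a group mean signal of at least 100, as log2(mean signal + 16) minus each gene's own mean over 12 groups, by watering within harvest; colour ends at 2. SWEET11, SWEET13 and SWEET4 are low in aerial parts and high in blades, and APL3 is highest at 5 weeks with GSSG and water.

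The wider lists of starch and sucrose genes hold 156 genes. Of these, 39 had a probe set with a single gene name and count as measured here, the trehalose pathway having 0. At 5W against water, 0 of 39 passed with GSSG, 3 passed with GSH (all lower) and 4 with NH4NO3 (1 higher and 3 lower). The counts with GSH and with NH4NO3 include APL3 itself, a gene chosen with earlier results of these data known. Over all probe sets 0.22% passed with GSSG, 1.49% with GSH and 2.22% with NH4NO3. The median log2 change was -0.08 with GSSG, -0.07 with GSH and -0.14 with NH4NO3, beside -0.03, -0.02 and -0.05 over all probe sets. APL3 was the 1 measured gene of starch synthesis or breakdown that passed with GSH or with NH4NO3. Few of these genes were measured here: 2 of 6 ADP-glucose pyrophosphorylase subunits, 5 of 20 other starch synthesis genes and 4 of 26 starch breakdown genes. SBE2.2, a starch branching enzyme, read 1827 with GSH and 1820.3 with NH4NO3 against 2816 in water, a log2 change of -0.62 with each (adjusted p = 0.0798 with GSH and 0.0651 with NH4NO3). Of the starch degrading genes none passed; the smallest p belonged to AMY1, an amylase, with GSH (log2 change 0.68, adjusted p = 0.692) and to PWD, a glucan phosphorylating enzyme, with NH4NO3 (-0.47, adjusted p = 0.196).

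Besides APL3, TST2 passed with both GSH and NH4NO3. TST2 carries sugars into the vacuole, and it read 492 ± 43.3 with GSH and 511 ± 37.2 with NH4NO3 against 1039.5 ± 0.57 in water (SD, n = 2 each). Its log2 changes were -1.06 ± 0.24 with GSH (adjusted p = 0.0305) and -1.003 ± 0.24 with NH4NO3 (adjusted p = 0.0312), and -0.71 with GSSG (adjusted p = 0.462). TST2 also passed upwards between 4W and 5W in water (0.85, adjusted p = 0.028), a comparison that shares its 5W water arrays with those above and is not independent of them. TST3, of the same family, passed with GSH (adjusted p = 0.0338) but was dim in both groups, at 2.76 against 62.4 in water.

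On the sucrose side, VI1, a vacuolar invertase that splits sucrose, passed upwards with NH4NO3, at 720 ± 80.9 against 227 ± 75.8 in water (log2 change 1.63 ± 0.35, adjusted p = 0.0136). SPS4F, a sucrose phosphate synthase, read 1147 with NH4NO3 against 3296 in water, a log2 change of -1.51 ± 0.42 that did not pass (adjusted p = 0.0688). bZIP53, the 1 measured gene of sugar signalling, did not pass with any solution. Leaving out 1 array lowered these counts: with GSH, of 3, to 0 without GSH replicate 1, 0 without water replicate 2 and 1 without GSH replicate 2. With NH4NO3, of 4, the counts were 1 and 2 without NH4NO3 replicate 1 and 2, and 2 and 0 without water replicate 1 and 2.

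Between 3W and 4W the starch and sucrose genes passed mostly upwards, 14 up and 4 down with GSSG, 13 and 2 with GSH, 15 and 2 with NH4NO3, and 18 and 3 in water. Over all probe sets the counts were 3769 up and 4342 down with GSSG (35.7% passed), 3632 and 4561 with GSH (36%), 3901 and 4511 with NH4NO3 (37%), and 4260 and 4320 in water (37.7%). The median log2 change of the 39 was 0.60, 0.42, 0.38 and 0.76 in that order of waterings, beside 0.01, -0.05, -0.03 and 0.07 over all probe sets. After SWEET11 and SWEET13, genes that passed upwards in water included SPS4F (log2 change 5.02, 1759 against 38.0 at 3W), GWD2, a glucan kinase (3.27), and STP3, a hexose symporter (2.51). Between 4W and 5W, 3 passed upwards and 3 downwards with GSSG, 1 and 1 with GSH, 0 and 0 with NH4NO3, and 5 and 1 in water. These counts lie near the shares over all probe sets, 12.5% with GSSG, 4.34% with GSH, 2.43% with NH4NO3 and 10.6% in water.

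Likeness to each gene was measured as Pearson's r over the 12 group means of log2(signal + 16), among 8367 probe sets with 1 gene and enough signal, as a description. Groups share a scaling and, by 4, a harvest, and a high r is common. For APL3, 448 probe sets had r above 0.9, and the 5 highest were AT5G01780 (0.973), AT5G52660 (0.971), ELC, a component of the ESCRT sorting machinery (0.971), AT5G41560 (0.970) and AT2G21130 (0.970). Over the 8 blade groups alone the r of these 5 ran from 0.911 to 0.934, which is no separate check, since they were picked over 12 groups that include these 8. Their own log2 changes with GSH at 5W ran from -0.58 to -0.34, and none of the 5 passed (adjusted p 0.261 to 0.47).

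For SWEET11, 1303 probe sets had r above 0.9. The 5 highest were AT3G62550 (0.998), PIFI, a chloroplast protein linked to the NDH complex (0.997), AT2G01680 (0.996), GSTL3, a glutathione transferase of the lambda class (0.996), and AT5G11840 (0.996). Over the 8 blade groups their r ran from -0.36 to 0.46, so the likeness lay in the step from aerial parts to blades. APL3 and SWEET11 had r = 0.83 with each other over the 12 groups and -0.21 over the 8 blade groups.

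**Figure D5:**
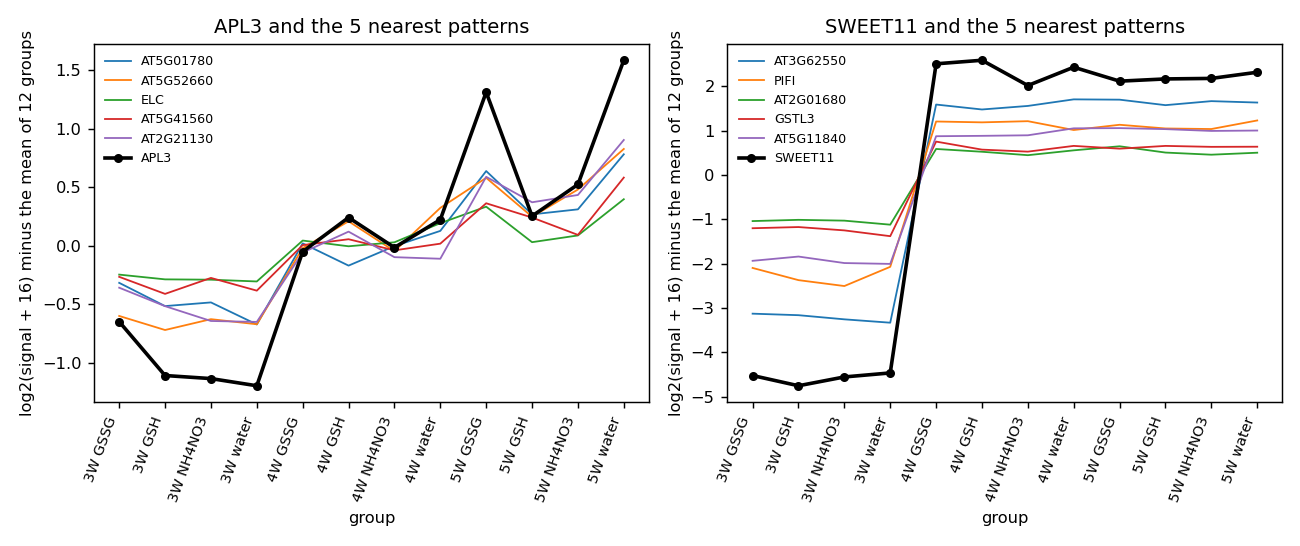
Group means of log2(signal + 16), each gene minus its own mean over 12 groups, for APL3 (left) and SWEET11 (right) with the 5 genes of highest Pearson correlation; lines join groups in harvest order, and waterings within a harvest have no order of their own. The genes near APL3 dip with it at 5 weeks with GSH and NH4NO3 by less, and those near SWEET11 share its step between aerial parts and blades.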

How the data were processed

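The authors hybridised total RNA, amplified from the 3' end with biotin per the labels' protocols, to 24 Affymetrix arrays. The deposited values are intensity (signal) per probe set, made with Affymetrix Expression Console per the submitters' processing notes; neither its version nor its algorithm is given in the sources used here. From the values, the scale is linear, with a trimmed mean (2% at each end) near 500 on every array, so nothing further was normalized. Scaling to a common mean assumes similar total RNA.

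Groups and replicate numbers came from sample titles. The labels do not say that replicates were separate pots, so p-values measure only how far these samples spread, and that spread may be technical. From the deposited intensity, log2(signal + 16) was computed for 22746 probe sets, without a filter and without 64 control probe sets. Log2 changes are on this scale and understate changes of dim probe sets; folds are ratios of mean signals. limma 3.58.1 in R 4.3.3 fitted 12 group means to all arrays with an intensity trend (12 residual and 7.39 prior degrees of freedom), and Benjamini-Hochberg adjustment ran over all probe sets within each of 32 contrasts. The steps were tested on simulated data. Python 3.11.15, pandas 2.3.3 and matplotlib 3.10.9 drew the plots.

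Genes were named from the platform table, updated to TAIR10.1 symbols: 13513 probe sets had 1 gene, 503 several and 8730 none here. The text names both members, measured ADP-glucose pyrophosphorylase and SWEET genes, up to 4 genes of each other list past the test at 5W or the 1 with the smallest p, and the 5 nearest patterns; genes named over 3W to 4W were chosen after their values were seen. The members, lists and tests were chosen with earlier results of these data known. Alternatives were pseudocounts of 1 and 64, quantile normalization, median centring, a filter at the 40th percentile, no trend, a robust prior, a replicate block, fewer arrays in the fit, and leaving out each array. Added after seeing the data were the 4W against 3W contrasts and leaving out all replicate 2 arrays at 4W.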

Additional observations from a re-analysis of the deposited data

How the results depend on the processing

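The rise of APL3 between 4W and 5W in water and GSSG, and of SWEET11 between 3W and 4W in every watering, held under every alternative run. APL3 at 5W stayed lower than water throughout with GSH, NH4NO3 and the fed mean, but no call held in every fit. Without an intensity trend the NH4NO3 value of -1.06 had an adjusted p of 0.0664 and the fed mean of -0.89 one of 0.0632. With only the arrays compared NH4NO3 (-1.06) had 0.0666. Leaving out 1 array gave -1.49 to -1.17 with GSH, -1.33 to -0.79 with NH4NO3 and -0.98 to -0.80 for the fed mean. APL3 from 3W to 4W with GSSG passed under quantile normalization (0.72), median centring (0.77) and the filter (0.60). Its change was 0.85 without the 4W replicate 2 arrays and 0.34 to 0.85 when 1 array was left out. With the block within harvests it was 0.88 and passed, but that fit compares harvests at the level of replicate 1. The 0.88 is therefore not an adjusted estimate of the same step.

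Values near 0 that never passed changed sign. For the APL3 GSSG effect at 5W minus 4W these were -0.014 with a pseudocount of 64, -0.046 with quantile normalization, -0.034 with median centring and -0.0043 without the 4W replicate 2 arrays, and -0.26 to 0.26 when 1 array was left out. For APL3 with GSH from 4W to 5W they were -0.083, -0.048 and -0.13 under quantile normalization, median centring and without the 4W replicate 2 arrays (-0.15 to 0.18 with 1 array out). With the block within harvests this step was -0.23, but that fit compares harvests at the level of replicate 1 only. Quantile normalization turned SWEET11 with GSSG at 4W to -0.039 and from 4W to 5W in water to 0.060. Without the 4W replicate 2 arrays APL3 with GSH at 4W was -0.087, SWEET11 with NH4NO3 from 4W to 5W -0.095 and its NH4NO3 effect difference -0.021.

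Other ranges with 1 array left out were, for APL3 against water, -0.25 to 0.42 with GSH at 3W, -0.063 to 0.19 with NH4NO3 at 3W, -0.23 to 0.27 with GSH at 4W and -0.49 to 0.014 with NH4NO3 at 4W. For SWEET11 against water at 3W they were -0.40 to 0.29 with GSSG, -0.66 to 0.082 with GSH and -0.68 to 0.50 with NH4NO3, and with NH4NO3 from 4W to 5W -0.095 to 0.42. At 5W the pairs of solutions for SWEET11 gave -0.14 to 0.043 (GSSG minus GSH), -0.14 to 0.013 (GSSG minus NH4NO3) and -0.10 to 0.081 (GSH minus NH4NO3). Starch and sucrose genes past the test at 5W numbered 1 (of 4, NH4NO3) without a trend, 1 (GSH) and 2 (NH4NO3) with only 4W and 5W arrays, and 1 (GSH) with only the arrays compared. With 1 array out they numbered 0 to 2 with each. All probe sets past the test at 5W numbered 50 with GSSG (0 to 181 over the alternatives), 338 with GSH (66 to 897) and 504 with NH4NO3 (154 to 1080).

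Same-numbered arrays of a harvest deviated together weakly (r 0.04 to 0.25 at 3W, 0.23 to 0.38 at 4W, 0.11 to 0.38 at 5W), and the labels give only a number. The replicate block within each harvest gave an adjusted p of 0.0288 for the APL3 GSH effect difference (-1.35) and 1 starch or sucrose gene with GSSG and 6 with GSH at 5W; as a block over all harvests, the number changed no call of either gene. With 2 arrays a group, APL3 changes of under about 0.5 on the log2 scale had 95% intervals that include 0.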
